A study of Mus musculus with 5 samples.

Results

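The genes described here are 10 targets of ERK signalling, Dusp4, Dusp6, Spry2, Spry4, Spred1, Spred2, Etv4, Etv5, Phlda1 and Ier3, in mouse embryonic stem cells with and without C3G. They were taken by name from the 55147 gene symbols of the deposited table, with no threshold on their values, and all 10 were among the 12518 genes with at least 1 TPM in at least 2 samples. RNA was sequenced from 3 WT samples and 2 C3G null samples of E14Tg2a, a line of mouse ES cells, and the question was which genes differ when C3G, the product of Rapgef1, is lost. Both groups were grown on gelatin in serum medium with LIF and received no treatment. WT is the parental line. In the null cells, CRISPR and a homology donor had placed a puromycin cassette in Rapgef1, and colonies were picked after selection, so the null cells also differ from WT by the cassette and by cloning. Vector control cells were not analysed here, and the labels do not say which clones the 2 null samples are. The study calls the samples of each group independent, but the labels name no separate cultures, so that p-values may cover technical spread only.

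Growth factors such as FGF4 activate receptor tyrosine kinases, which pass the signal through Ras, Raf and MEK to the ERK kinases. Active ERK in turn raises the transcription of its own inhibitors, and the RNA of these genes is widely used as a readout of ERK signalling. They act at different levels: DUSP phosphatases remove phosphate from ERK, Sprouty and Spred proteins act near the receptor and Ras, and the PEA3 factors Etv4 and Etv5 carry the signal to further genes. In mouse ES cells, FGF and ERK signalling primes the cells for differentiation.

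TPM set each transcript's estimated reads against its length and the total of the sample, so levels of different genes can be compared, but every RNA competes for the same total. Small non-coding RNAs, counted together with ribosomal RNAs including the mitochondrial ones, held 62.9%, 63.5% and 67.2% of the TPM in WT 1, WT 2 and WT 3. In C3G null 1 and C3G null 2 they held 77.8% and 69.6%. As deposited, log2 fold changes of C3G null against WT had a median of -0.55 over all tested genes, and 56.8% of genes were called lower and 1.45% higher. Median-of-ratios scaling brings samples to a common centre, using for each sample the typical ratio of its genes to their geometric means. On this scale the median was 0.0052, and 16.6% of genes were called lower and 14.1% higher. Both are given for each of the 10 genes, and values of other genes are those after scaling unless stated otherwise. A gene was called at an adjusted p under 0.05 from limma on log2(TPM + 1), with Benjamini-Hochberg adjustment over all tested genes, and all fold changes are on this scale, which understates the change of low genes. The depth of each sample cannot be read from TPM, so no counting error is given. In bulk RNA, fewer cells that express a gene and less RNA per cell cannot be told apart.

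Rapgef1 (ENSMUSG00000039844, chr2:29619720-29740978, GRCm38) had 11.56, 10.31 and 9.64 TPM as deposited in the WT samples and 3.92 and 5.55 TPM in the null samples. Its scaled level in null cells was 72.3% of that in WT (log2 fold change -0.41, SE 0.059, adjusted p = 0.00444). The null samples thus lay below every WT sample but kept Rapgef1 RNA, and with values corrected for length and GC content of transcripts the log2 fold change was -0.14 (adjusted p = 0.178). Across 12514 tested genes, which are not independent replicates, scaled log2 fold change and transcript length had a Spearman correlation of -0.305. The sum over transcripts also counts exons that the cassette did not replace, so it is only a partial check of the labels. The 8 ES cell markers summed to between 2223 and 2345 TPM in WT and between 1771 and 2311 TPM in null cells as deposited, and none of them was at or below 1 TPM. All 8 were thus present in every sample. After scaling, the sums were between 1665 and 2079 TPM in WT and between 2551 and 2862 TPM in null cells. Most of each sum was Dppa5a, which rose after scaling (log2 fold change 0.71, adjusted p = 0.0307) and had 0.0084 as deposited.

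Of the 10 ERK feedback and output genes, 5 fell in C3G null cells after scaling, against 16.6% of all tested genes, and none rose. The 5 were Phlda1, Dusp4, Spred1, Spry2 and Dusp6. Phlda1 was below 1 TPM as deposited in C3G null 1 and met the filter only with the help of WT, where it was high. The other 5, Spred2, Etv4, Spry4, Etv5 and Ier3, did not pass the test. The median of the 10 scaled log2 fold changes was -0.48, against 0.0052 for all tested genes. As deposited, 9 of the 10 were called lower, against 56.8% of all tested genes, and their median was -1.12, which is -0.57 relative to that of all tested genes. Null samples lay below every WT sample for 8 of the 10 genes after scaling, a separation that 29.3% of all tested genes showed, and for all 10 as deposited, where 75.7% of tested genes did. The count of lower genes among the 10 thus depended on the scale, whereas the median lay below that of all genes on both.

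**Figure D1:**
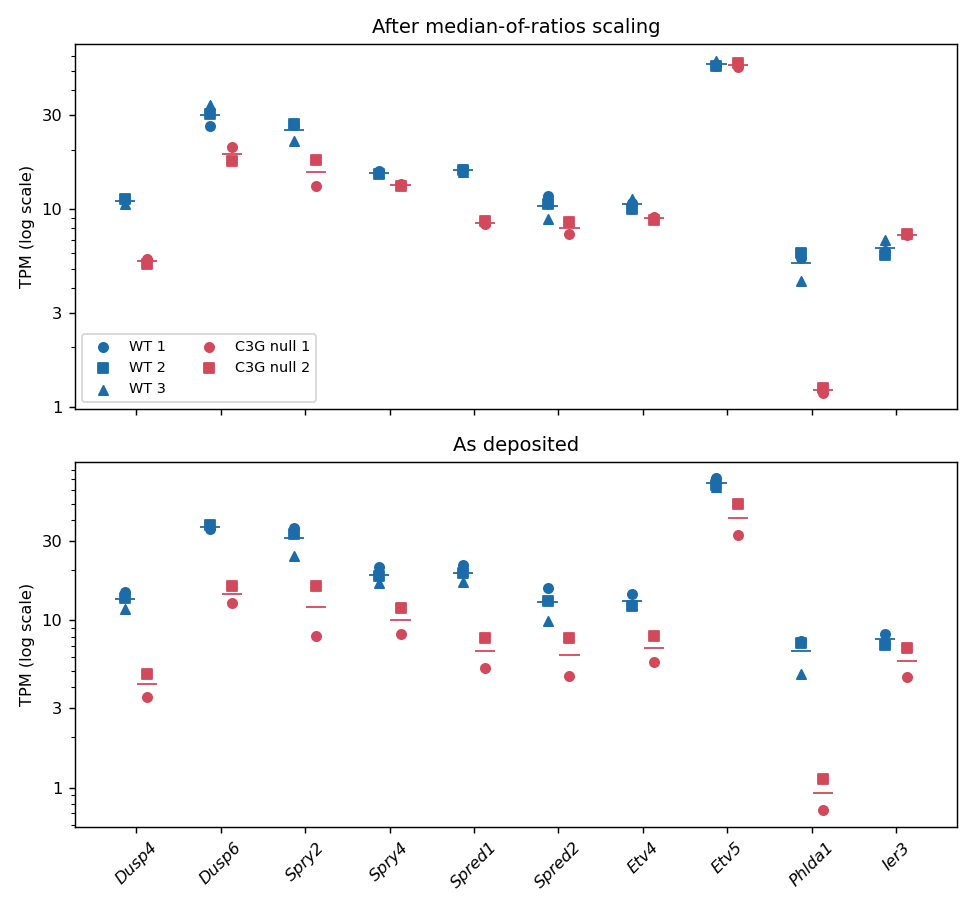
TPM (log axis) of each gene in the 5 samples after median-of-ratios scaling (top) and as deposited (bottom), with WT in blue, C3G null in red and a horizontal line at each group's mean. After scaling, the null samples of Phlda1 lie at 1.18 and 1.25 TPM, far below WT, while those of Etv5, at 52.3 and 55.2 TPM, are level with WT, at 52.9 to 56.6 TPM.

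**Figure D2:**
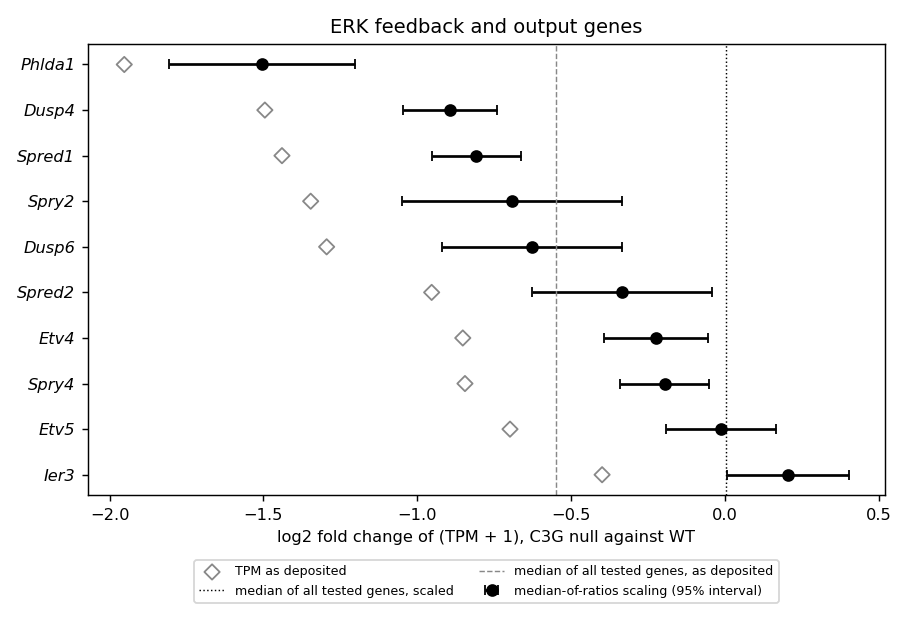
log2 fold change of C3G null against WT for each gene after median-of-ratios scaling (black, with the unadjusted 95% interval) and as deposited (diamonds), with the median of all tested genes on each scale as a vertical line. Phlda1 has the lowest value and Ier3 the highest on both scales, and all 10 diamonds lie to the left of 0.

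Dusp4 and Dusp6 encode phosphatases that inactivate ERK, DUSP4 in the nucleus and DUSP6 in the cytoplasm, and both fell. Dusp4 (ENSMUSG00000031530, chr8:34807297-34819894) had 14.87, 13.68 and 11.73 TPM as deposited in WT 1, WT 2 and WT 3 and 3.47 and 4.81 TPM in C3G null 1 and C3G null 2. Scaled, these became 11.1, 11.2 and 10.6 TPM and 5.61 and 5.31 TPM. The samples of each group lay close together, and the groups were well apart. The scaled level of Dusp4 in null cells was 49.7% of WT (log2 fold change -0.89, SE 0.062, 95% interval -1.04 to -0.74, adjusted p = 0.00046), and as deposited the log2 fold change was -1.50 (adjusted p = 4.97e-08). Only 2.70% of tested genes had a lower scaled fold change.

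Dusp6 (ENSMUSG00000019960, chr10:99263231-99267489) was the more abundant phosphatase. As deposited it had 35.20, 37.17 and 37.04 TPM in the WT samples and 12.75 and 15.96 TPM in the null samples. After scaling the levels were 26.4, 30.5 and 33.6 TPM in WT and 20.6 and 17.6 TPM in null cells. WT samples were more spread after scaling than before it, and the groups did not overlap on either scale. In null cells the scaled level was 63.4% of WT (log2 fold change -0.63, SE 0.12, 95% interval -0.92 to -0.33, adjusted p = 0.0121), and as deposited the log2 fold change was -1.29 (adjusted p = 1.74e-05). Without C3G null 2 the scaled call was lost (log2 fold change -0.52, adjusted p = 0.0689).

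Capicua is a repressor that binds short AT-rich octamers near such genes and is released from them when ERK is active. Promoter windows of the RefSeq table (GRCm38.p6, 250 bases before to 50 after the start) were searched for 6 of the 10 genes. These were Dusp6, Spry2, Spred1, Spred2, Etv5 and Ier3. The Spred1 window, chr2:117120821-117121120, lies wholly before the start of the gene given below, so the bases at that start were not searched. Etv5 had windows at chr16:22439521-22439820 and chr16:22438319-22438618. No window was available for Dusp4, Etv4 and Phlda1. Spry4 was left out of the search, so the presence of an octamer in its promoter was not tested. An exact search for TGAATGAA, TGAATGGA, TCAATGAA and TCAATGGA on both strands found an octamer in Dusp6 and Spry2. Such an octamer was in 3.84% of all 32851 promoter windows searched. Dusp6 has TCCATTGA at positions -24 and 1, and Spry2 has TTCATTGA at position -54, counted from the start base as 0 and read along the gene, so that the octamer itself is on the other strand. The 150 bases that run from 120 before the start are shown for both, chr10:99263111-99263260 on the plus strand and chr14:105896790-105896939 on the minus strand of GRCm38.p6, with the matches in capitals.
Dusp6: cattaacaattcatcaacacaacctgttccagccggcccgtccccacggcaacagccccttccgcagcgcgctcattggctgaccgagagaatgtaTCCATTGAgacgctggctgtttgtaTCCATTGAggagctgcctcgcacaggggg
Spry2: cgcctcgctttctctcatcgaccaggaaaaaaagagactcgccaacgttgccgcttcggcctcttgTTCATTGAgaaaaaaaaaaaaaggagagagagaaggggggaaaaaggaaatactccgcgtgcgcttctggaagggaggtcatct
Dusp6 and Spry2 were both among the 5 genes that fell. No octamer was found in the window searched for Spred1, which also fell, or in those of Spred2, Etv5 and Ier3. The ETS motif CCGGAAG, found in 8.86% of all windows, was in none of the 6 genes' windows, nor were the cyclic AMP element TGACGTCA, found in 1.79%, and the CArG box, found in 1.63%. The shorter core TGACG, which the full element contains, was present in Spred2 at position -51, read as CGTCA, and in 20.8% of all windows. These are matches of letters and show no binding.

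Sprouty proteins block signalling from receptor tyrosine kinases to Ras and Raf. Spry2 fell and Spry4 did not pass the test. Spry2 (ENSMUSG00000022114, chr14:105891947-105896819) had 35.83, 32.98 and 24.41 TPM as deposited in the WT samples and 8.11 and 16.04 TPM in the null samples. Scaled levels were 26.8, 27.0 and 22.1 TPM in WT and 13.1 and 17.7 TPM in null cells. WT 3 was the lowest WT sample and C3G null 2 the higher null sample, and a gap remained between them. The scaled level in null cells was 60.8% of WT (log2 fold change -0.69, SE 0.15, 95% interval -1.05 to -0.33, adjusted p = 0.0170), and as deposited the log2 fold change was -1.35 (adjusted p = 5.79e-06). The scaled call was lost without WT 1 (adjusted p = 0.0510), without WT 2 (adjusted p = 0.0527) and without C3G null 1 (log2 fold change -0.49, adjusted p = 0.0773).

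Genes around Spry2 were also lower. Of the 5 tested genes that start within 1 Mb of it, 3 fell and 1 rose, with a median scaled log2 fold change of -0.30. Of the 15 within 5 Mb, 9 fell and 1 rose, with a median of -0.34. Over all tested genes, 16.6% were lower and 14.1% higher. Within 1 Mb of other members, 6 of 18 fell around Spry4, 14 of 53 around Ier3, which did not itself fall, and 5 of 50 around Etv4. None fell around Dusp4, Dusp6, Spred2 or Phlda1. The part of this neighbourhood in the fall of Spry2 was not tested.

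Spry4 (ENSMUSG00000024427, chr18:38586247-38601415) had 20.88, 18.41 and 16.85 TPM as deposited in WT and 8.28 and 11.89 TPM in null cells. After scaling it had 15.6, 15.1 and 15.3 TPM in WT and 13.4 and 13.1 TPM in null cells. The groups did not overlap, and the scaled difference was small, with null cells at 86.4% of WT (log2 fold change -0.20, SE 0.059, 95% interval -0.34 to -0.052, adjusted p = 0.0503). As deposited the log2 fold change was -0.84 and Spry4 was called lower (adjusted p = 0.00449).

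Spred proteins bring the Ras inhibitor neurofibromin to the membrane. Spred1 fell, and Spred2 had lower values that did not pass the test. Spred1 (ENSMUSG00000027351, chr2:117121374-117182279) had 21.47, 19.18 and 17.04 TPM as deposited in the WT samples and 5.22 and 7.87 TPM in the null samples, or 16.1, 15.7 and 15.4 TPM and 8.44 and 8.69 TPM after scaling. Scaling drew the samples of each group together. Spred1 in null cells was at 54.4% of WT (log2 fold change -0.81, SE 0.060, 95% interval -0.95 to -0.66, adjusted p = 0.000507), and as deposited the log2 fold change was -1.44 (adjusted p = 4.18e-07). Its tested neighbours within 1 Mb were Fam98b (0.20) and Thbs1, which fell by 3.22 on the log2 scale, with a median of -1.51, and the median of the 83 within 5 Mb was 0.0050. The part of this neighbourhood in the fall of Spred1 was not tested.

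Spred2 (ENSMUSG00000045671, chr11:19924375-20024026) had 15.67, 13.00 and 9.89 TPM as deposited in WT and 4.62 and 7.84 TPM in null cells. Scaled, WT 3 with 8.96 TPM lay near C3G null 2 with 8.65 TPM, while WT 1 and WT 2 had 11.7 and 10.7 TPM and C3G null 1 had 7.47 TPM. The groups were separate by a narrow margin, set by WT 3. The scaled level in null cells was 77.1% of WT (log2 fold change -0.33, SE 0.12, 95% interval -0.63 to -0.041, adjusted p = 0.0820), and the test was passed without WT 3 (adjusted p = 0.0299). As deposited the log2 fold change was -0.95 and Spred2 was called lower (adjusted p = 0.000908).

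Etv4 and Etv5 are ETS transcription factors of the PEA3 group, which FGF signalling induces in many tissues. Neither passed the test after scaling. Etv4 (ENSMUSG00000017724, chr11:101769742-101785371) had 14.38, 12.25 and 12.42 TPM as deposited in WT and 5.64 and 8.04 TPM in null cells, or 10.8, 10.04 and 11.3 TPM and 9.12 and 8.87 TPM after scaling. The groups did not overlap, and null cells were at 84.2% of WT (scaled log2 fold change -0.22, SE 0.070, 95% interval -0.39 to -0.055, adjusted p = 0.0546). As deposited, the log2 fold change of Etv4 was -0.85 and it was called lower (adjusted p = 0.00328).

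Etv5 (ENSMUSG00000013089, chr16:22381309-22439719) had the highest level of the 10 genes, with 70.95, 64.54 and 62.46 TPM as deposited in WT and 32.33 and 49.97 TPM in null cells. Scaling closed the gap: WT samples then had 53.1, 52.9 and 56.6 TPM and null samples 52.3 and 55.2 TPM. C3G null 2 lay between WT samples and C3G null 1 just below them. The scaled level in null cells was 99.1% of WT (log2 fold change -0.013, SE 0.073, adjusted p = 0.910), and the 95% interval of the difference ran from -0.19 to 0.16. As deposited it was called lower (log2 fold change -0.70, adjusted p = 0.0249), which is -0.15 relative to the median over all genes. Of the 18 tested genes that start within 1 Mb of Etv5, 7 rose and none fell after scaling, with a median log2 fold change of 0.30. Of the 69 within 5 Mb, 11 rose and 7 fell, with a median of 0.10. Over all tested genes, 14.1% were higher and 16.6% lower.

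Phlda1, which encodes a small protein with a pleckstrin homology-like domain and is induced by growth factors, had the lowest fold change of the 10. Phlda1 (ENSMUSG00000020205, chr10:111506286-111508645) had 7.53, 7.30 and 4.79 TPM as deposited in the WT samples and 0.73 and 1.13 TPM in the null samples, or 5.64, 5.98 and 4.34 TPM and 1.18 and 1.25 TPM after scaling. Every WT sample was several times above both null samples. The scaled level in null cells was 22.8% of WT (log2 fold change -1.50, SE 0.12, 95% interval -1.81 to -1.20, adjusted p = 0.000670), and 0.535% of tested genes had a lower scaled fold change. As deposited the log2 fold change was -1.95 (adjusted p = 1.56e-16). C3G null 1 was below 1 TPM as deposited, so Phlda1 met the filter only with the help of WT, where it was high. Its fall thus draws on the values that the filter used. Without the filter the scaled log2 fold change was the same (adjusted p = 0.00478).

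Ier3, an immediate early gene whose product is a substrate of ERK and limits cell death, went the other way after scaling without passing the test. Ier3 (ENSMUSG00000003541, chr17:35821684-35822923) had 8.26, 7.14 and 7.69 TPM as deposited in WT and 4.56 and 6.80 TPM in null cells. After scaling it had 6.19, 5.85 and 6.97 TPM in WT and 7.37 and 7.51 TPM in null cells. The null samples lay below WT as deposited and above WT after scaling, while relative to the median of all genes Ier3 was higher on both scales, by 0.15 as deposited and 0.20 scaled. The scaled log2 fold change was 0.20 (SE 0.081, 95% interval 0.0073 to 0.40, adjusted p = 0.104) and that as deposited was -0.40 (adjusted p = 0.133).

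The order of genes within a sample does not depend on any scaling by a single factor. Percentiles were taken among 10832 tested protein-coding genes in each sample. Phlda1 stood at percentiles 45.8, 47.8 and 37.8 in the WT samples and at 9.08 and 10.5 in the null samples. Dusp4 stood at 67.6, 67.4 and 65.5 in WT and at 47.3 and 45.5 in null cells, and Spred1 at 77.0, 76.1 and 75.5 and at 59.4 and 60.0. These 3 genes thus dropped well down the order of each null sample. For Dusp6 the percentiles were 86.9, 88.5 and 89.7 in WT and 81.7 and 78.1 in null cells, and for Spry2 87.3, 86.7 and 83.1 and 71.6 and 78.2. Etv5 stayed between 93.5 and 94.2 in all 5 samples. Spry4, Spred2 and Etv4 were lower in null samples by smaller steps, with Spred2 at 60.2 in WT 3 and 59.7 in C3G null 2. Ier3 was the exception, at 49.0, 47.0 and 52.5 in WT and at 55.7 in both null samples.

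**Figure D3:**
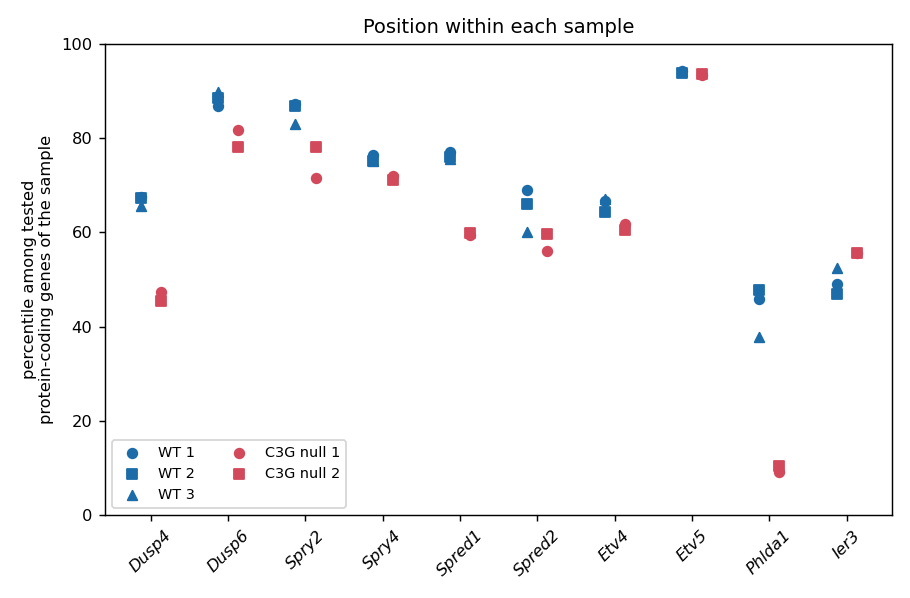
Percentile of each gene among 10832 tested protein-coding genes of the same sample, with WT samples in blue and C3G null samples in red. Dusp4, Spred1 and Phlda1 stand well lower in both null samples, Etv5 stays between 93.5 and 94.2, and Ier3 stands higher in null cells.

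Ranked by scaled mean level in WT, the genes ran from Etv5 (54.2 ± 2.05 TPM, SD, n = 3) through Dusp6 (30.1 ± 3.61), Spry2 (25.3 ± 2.79), Spred1 (15.7 ± 0.324), Spry4 (15.3 ± 0.28), Dusp4 (11.0 ± 0.32), Etv4 (10.7 ± 0.608), Spred2 (10.5 ± 1.40) and Ier3 (6.34 ± 0.571) to Phlda1 (5.32 ± 0.868). Neighbours in this order overlapped in their samples for Dusp6 and Spry2, for Spred1 and Spry4, for Dusp4, Etv4 and Spred2, and for Ier3 and Phlda1. In null cells the order was Etv5 (53.7 ± 2.05 TPM, SD, n = 2), Dusp6 (19.1 ± 2.12), Spry2 (15.4 ± 3.25), Spry4 (13.3 ± 0.183), Etv4 (8.995 ± 0.171), Spred1 (8.56 ± 0.177), Spred2 (8.06 ± 0.839), Ier3 (7.44 ± 0.0957), Dusp4 (5.46 ± 0.212) and Phlda1 (1.21 ± 0.0476). Here the samples overlapped for Dusp6 and Spry2, for Spry2 and Spry4, for Spred1 and Spred2 and for Spred2 and Ier3. Etv5, Dusp6 and Spry2 led in both groups. Spred1 and Dusp4 moved down in the order, Dusp4 to below Ier3.

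Because both genes of a pair share each sample's scaling, the ratio within a pair is the same on both scales. The ratio of Ier3 to Phlda1 was 1.10, 0.978 and 1.61 in WT and 6.25 and 6.02 in null cells. Spry2 to Spry4 was 1.72, 1.79 and 1.45 in WT and 0.979 and 1.35 in null cells, and Spred1 to Spred2 was 1.37, 1.48 and 1.72 and 1.13 and 1.004. In these pairs both null samples lay outside the range of WT. Dusp6 to Dusp4 was 2.37, 2.72 and 3.16 in WT and 3.67 and 3.32 in null cells, and Etv5 to Etv4 was 4.93, 5.27 and 5.03 and 5.73 and 6.22. The groups did not overlap in any of the 5 ratios, and each gave p = 0.2 (adjusted p = 0.2 over 5) in an exact two-sided permutation test, the smallest p that 10 arrangements allow. The ratios were chosen after the data had been examined. The share of other gene pairs whose ratios do not overlap between the groups was not taken, so this count has no background beside it.

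Of 32 transcripts of these genes in the table, 17 were tested, and 4 fell after scaling, against 5.07% of all 25166 tested transcripts. None rose. As deposited 10 were called lower, against 22.9% of all tested transcripts. Dusp4, Spry2, Spry4 and Ier3 have only 1 transcript in the table. The single Spry2 transcript did not pass the test among transcripts (adjusted p = 0.0598). The 4 that fell were the main protein-coding transcripts of Dusp4, Dusp6, Spred1 and Phlda1. For Dusp6 this was ENSMUST00000020118, which held 92.7%, 83.8% and 77.4% of the gene's TPM in WT and 75.8% and 85.7% in null cells (scaled log2 fold change -0.68, adjusted p = 0.00986). ENSMUST00000028829 of Spred1 held between 86.8% and 90.1% of the gene in all samples (-0.82, adjusted p = 0.00627), and ENSMUST00000164773 of Phlda1 held between 91.6% and 100% (-1.46, adjusted p = 0.00875). The lower level of each gene was thus carried by the transcript that makes up most of it. The Phlda1 transcript had 0.73 TPM as deposited in C3G null 1, so it too met the filter only with the help of WT.

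Minor transcripts behaved less evenly. The Dusp6 transcript ENSMUST00000220218, which is not protein-coding, had 0.47, 3.92 and 5.90 TPM as deposited in WT and 2.31 and 1.39 TPM in null cells, so that WT samples spanned the null samples. Dusp6 also has ENSMUST00000219988, likewise not protein-coding, which had 2.06 ± 0.172 TPM in WT (SD, n = 3) and 0.610 ± 0.127 TPM in null cells (SD, n = 2) as deposited (scaled log2 fold change -0.56, adjusted p = 0.113). For Etv5, the shorter ENSMUST00000168774 was listed at 0 in WT 1 and had 3.80 and 11.48 TPM in WT 2 and WT 3 and 2.41 and 0.25 TPM in null cells, and the main transcript ENSMUST00000079601 had 70.95, 60.74 and 50.98 TPM and 29.71 and 49.72 TPM. The split between these transcripts is an estimate from shared reads, and ENSMUST00000168774 ranged from 0% to 18.4% of the gene's TPM within WT.

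Spred2 and Etv4 divide their RNA between transcripts. Of Spred2, ENSMUST00000093298 held 48.9%, 45.5% and 50.1% in WT and 46.3% and 39.2% in null cells, with a scaled log2 fold change of -0.44 (adjusted p = 0.0729), and ENSMUST00000093299 had -0.18 (adjusted p = 0.515). Of Etv4, ENSMUST00000017868 held 41.3%, 43.7% and 48.6% in WT and 43.6% and 34.1% in null cells, with -0.36 (adjusted p = 0.173), and ENSMUST00000107176 had 0.081 (adjusted p = 0.639). Neither transcript of either gene passed the test. The remaining transcripts with at least 1 TPM on average in a group were ENSMUST00000110901 of Spred1 (-0.42, adjusted p = 0.0913), ENSMUST00000132040 of Etv4 (-0.019, adjusted p = 0.964) and ENSMUST00000154512 of Etv4, which was too low to be tested.

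Other genes of the pathway were grouped in lists. Over all tested genes, 16.6% were called lower and 14.1% higher after scaling. Dusp10, Ets1, Elk3, Lif, Atf3 and Fgf8 were below 1 TPM as deposited in both null samples. Jun, Emp1, Egr1, Spred3 and Rras were below 1 TPM as deposited in C3G null 1 alone. All of these were thus tested only with the help of WT, where they were high. Their falls, counted in the lists below, draw on the values that the filter used. Among the other MAP kinase phosphatases, 2 of 6 tested fell and none rose, with a median scaled log2 fold change of -0.26. Dusp5, a nuclear phosphatase of ERK, went from a scaled mean of 4.55 ± 0.134 TPM (SD, n = 3) in WT to 1.78 ± 0.0186 TPM in null cells (SD, n = 2) (log2 fold change -0.9985, adjusted p = 0.000362), and Dusp10, which acts on stress kinases, fell by 0.42 (adjusted p = 0.0145). The call of Dusp10 was lost with quantile normalization (-0.19, adjusted p = 0.176), without C3G null 1 (adjusted p = 0.0706) and without C3G null 2 (adjusted p = 0.0624). Dusp9 missed the threshold (-0.38, adjusted p = 0.0545). Of the other receptor-level inhibitors, 2 of 5 fell with a median of -0.12: Errfi1, an inhibitor of the EGF receptor, from 12.9 ± 0.325 to 6.24 ± 0.230 TPM (-0.94, adjusted p = 0.000392), and Spred3 (-0.37, adjusted p = 0.0418). Spred3 kept its call in only 6 of 15 alternatives, with adjusted p between 0.0412 and 0.149 when 1 sample was left out (lost without WT 1, WT 3, C3G null 1 or C3G null 2) and -0.19 (adjusted p = 0.173) with the length and GC correction. Spry1 had 0.083 (adjusted p = 0.362). As deposited, 6 of 6 phosphatases and 3 of 5 receptor-level inhibitors were called lower, against 56.8% of all tested genes.

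Among the other ETS factors and Capicua, 5 of 11 tested fell and none rose, against 16.6% and 14.1% of all tested genes, with a median of -0.19. The lowest were Ets1 (-0.92, adjusted p = 0.00143), which was between 1.43 and 1.54 TPM in WT and at 0.08 and 0.20 TPM in null cells as deposited, Elk3 (-0.80, adjusted p = 0.00123) and Ets2 (-0.44, adjusted p = 0.00589), followed by the repressors Erf (-0.35) and Etv3 (-0.22). Cic, the gene of Capicua, had -0.19 (adjusted p = 0.176). Of the other ERK-induced targets, 5 of 9 tested fell and none rose, against the same shares, with a median of -0.51. Plaur, the urokinase receptor, fell from 21.7 ± 0.884 to 5.97 ± 0.450 TPM after scaling (-1.70, adjusted p = 0.00012), Hbegf, a ligand of the EGF receptor, fell by 1.26 on the log2 scale (adjusted p = 0.000311), and Emp1, a membrane protein, fell by 1.04 (adjusted p = 0.00042). Epha2, an ephrin receptor, had -0.51 (adjusted p = 0.00281) and Lif -0.53 (adjusted p = 0.00686). Ccnd1, cyclin D1, had -0.19 (adjusted p = 0.154), and Epha4 had 0.15 after scaling (adjusted p = 0.193) but -0.48 as deposited.

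Immediate early genes are transcribed within minutes of a stimulus. In this list 9 of 11 tested fell and none rose, against 16.6% and 14.1% of all tested genes. The median was -0.64, the lowest of the lists after scaling. Jun had -0.98 (adjusted p = 0.00154), Junb -0.95 (adjusted p = 0.000522) and Nr4a1 -0.84 (adjusted p = 0.00095). Fos (-0.093) and Ier2 (0.073) did not pass the test. In the cascade from adaptors to ERK and its kinases, 4 of 24 fell and 2 rose, with a median of -0.090. Rps6ka3 had -0.51 (adjusted p = 0.00813), the adaptor Shc1 -0.42 (adjusted p = 0.0171), Rras -0.38 (adjusted p = 0.0305) and Gab1 -0.36 (adjusted p = 0.0125). Mapk3, which encodes an ERK kinase, rose from 10.4 ± 0.327 to 16.3 ± 0.686 TPM after scaling (0.60, adjusted p = 0.00168) but had -0.046 as deposited, and Rps6ka2 rose by 0.38 (adjusted p = 0.0157) with -0.18 as deposited. Calls were lost for Rras without WT 1, WT 2, WT 3 or C3G null 1 (-0.25, adjusted p = 0.103), for Shc1 without WT 2, C3G null 1 or C3G null 2 (highest adjusted p = 0.0795), and for Rps6ka2 without WT 2 or C3G null 1 (highest adjusted p = 0.0844) and with protein-coding TPM (0.20, adjusted p = 0.163).

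FGF ligands and receptors changed in both directions, with 3 of 7 lower, 2 higher and a median of 0.060. Over all tested genes, 16.6% were lower and 14.1% higher. Fgf4, the main FGF of ES cells, rose from 14.7 ± 0.396 to 25.0 ± 2.38 TPM after scaling (0.73, adjusted p = 0.00168) but had 0.065 as deposited (adjusted p = 0.825), where the groups overlapped. Fgf15 rose by 1.001 (adjusted p = 0.000463) and was called higher on both scales. Fgf17 had -1.05 (adjusted p = 0.000614), Fgf8 -0.53 (adjusted p = 0.0264) and the receptor Fgfr1 -0.52 (adjusted p = 0.0292). The Fgfr1 call was lost without WT 1 (adjusted p = 0.0784), WT 3 (adjusted p = 0.0668) or C3G null 2 (-0.33, adjusted p = 0.114) and after correction for length and GC content (-0.29, adjusted p = 0.156), as was the Fgf8 call without C3G null 1 (adjusted p = 0.0607) or C3G null 2 (adjusted p = 0.133). Of the lists, the cascade had the share of lower genes closest to the 16.6% of all tested genes, 4 of 24. As deposited, 15 of the 24 cascade genes, 7 of 11 ETS factors, 6 of 9 targets, 4 of 7 FGF genes and 11 of 11 immediate early genes were called lower. The share over all tested genes was 56.8%, which the first 4 of these lists lie near. Differences between lists were not tested.

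**Figure D4:**
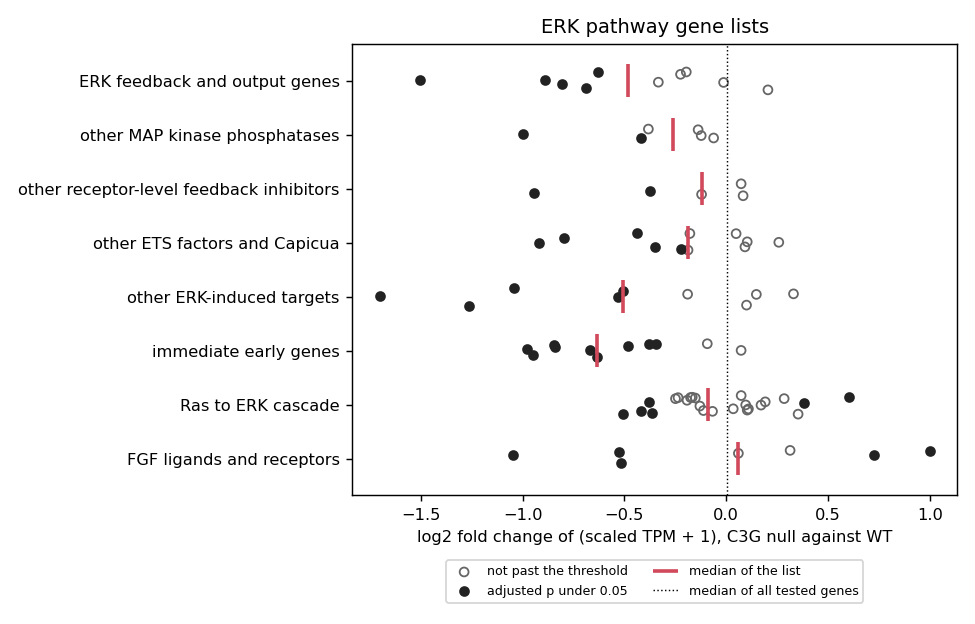
log2 fold change after scaling, C3G null against WT, of each tested gene in the 10 ERK feedback and output genes and 7 other pathway lists, with filled points past the threshold, a red bar at the list median and a dotted line at the median of all tested genes. Immediate early genes have the lowest median, -0.64, and the Ras to ERK cascade lies around the line.

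Markers of other cell types were low, and some moved with the groups. Fibroblast or feeder markers summed to between 4.15 and 5.98 TPM as deposited in WT and between 1.07 and 1.5 TPM in null cells, with 6 of 8 at or below 1 TPM in every sample and Lum at or near 0. Early mesoderm markers summed to between 5.07 and 6.90 TPM in WT and between 0.8 and 1.74 TPM in null cells, most of it T, the Brachyury gene, and trophoblast markers to between 14.7 and 21.1 TPM and between 5.97 and 10.1 TPM, most of it Tfap2c. Primitive endoderm markers summed to between 4.30 and 5.43 TPM in WT and between 4.30 and 8.49 TPM in null cells, with 5 of 7 at or below 1 TPM, and neural progenitor markers to between 14.9 and 16.4 TPM and between 15.8 and 21.1 TPM, most of it Tubb3, with Neurog2 at 0. After scaling, the sums of both lists were higher in null cells, between 6.95 and 9.37 TPM against between 3.90 and 4.07 TPM for primitive endoderm and between 23.3 and 25.6 TPM against between 12.2 and 13.95 TPM for neural progenitors, and Dab2 (0.69, adjusted p = 0.0247) and Tubb3 (0.93, adjusted p = 0.00342) rose. Early mesoderm sums stayed lower in null cells after scaling, at most 1.92 TPM against at least 4.16 TPM in WT. Those for trophoblast (11.1 against 13.3 TPM) and fibroblasts (1.73 against 3.76 TPM) did too. T (-1.15, adjusted p = 0.00254), Cdx2 (-0.73, 0.00227), Tfap2c (-0.38, 0.0203), Col1a1 (-0.96, 0.00135) and Thy1 (-0.36, 0.0227) fell, and Eomes (0.021) did not. All but Tfap2c and Eomes were below 1 TPM as deposited in C3G null 1 and met the filter only with the help of WT. The part of other cell types in the lower levels of the ERK genes was not tested.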

How the data were processed

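Total RNA from 3 WT and 2 C3G null samples of E14Tg2a cells was sequenced as paired-end reads. Per the submitters' processing notes and the study's methods, reads were converted with bcl2fastq (2.20), checked with FastQC (0.11.7) and aligned to GRCm38 with STAR (2.5.1b). The notes also list RSEM (1.2.31), without its role. The authors deposited TPM for 142647 transcripts, rounded to 2 decimals and summing to between 999998 and 1000001 per sample. Read counts are not analysed here, so the study's DESeq2 test could not be repeated.

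GENCODE M21 matched 141524 transcripts, and TPM were summed to 55147 gene symbols, of which 113 hold several identifiers. Genes with at least 1 TPM in at least 2 samples (12518) were tested with limma (3.58.1, R 4.3.3) on log2(TPM / median-of-ratios factor + 1), with a mean-variance trend, two-sided, at an adjusted p (Benjamini-Hochberg) under 0.05. The factors were 1.34, 1.22 and 1.10 in WT and 0.619 and 0.906 in null cells. Prior degrees of freedom were 3.11, but infinite for TPM as deposited, where all genes of like level share their variance. Transcripts were fitted likewise. The procedure was also run on simulated data with independent noise, changed genes above 5 TPM and a uniform rise of small RNAs in null cells. Those data held no effect of transcript length and no changed low genes, so the run is no check of the calls given here. The members and lists were chosen with earlier results of these data known. The text names all 10 members, their transcripts with a mean of at least 1 TPM in a group, Rapgef1, the 3 largest falls and rises past the threshold in each other list, Ccnd1, Epha2, Epha4, Fgf4 and Fgfr1. Genes beyond this rule (Dusp9, Spry1, Erf, Etv3, Cic, Lif, Fos, Ier2, Atf3, Egr1, Gab1, Fam98b, Thbs1 and single markers) were picked after their values were seen. Alternatives were TPM as deposited, quantile normalization, protein-coding TPM, no filter, a filter of 5 TPM, pseudocounts of 0.1 and 5, no trend, a length and GC correction (loess, span 0.5), a replicate block, both together, and each sample left out. Python 3.11.15, pandas 2.3.3, scipy 1.17.1 and matplotlib 3.10.9 made tables and figures. A gene of the cascade list is not reported here by name.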

Additional observations from a re-analysis of the deposited data

How the results depend on the processing

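Of the 10 genes, Dusp4, Spred1 and Phlda1 were called lower under all 16 alternatives run, Dusp6 under 15 and Spry2 under 13. The count of members lower, 5, was 9 as deposited and 8 with protein-coding TPM, and ranged from 4 to 6 with 1 sample left out. The median log2 fold change of the members, -0.48, was -1.12 as deposited, -0.52 with quantile normalization, -0.69 with protein-coding TPM, -0.51 and -0.39 with pseudocounts of 0.1 and 5, -0.52 with the 5 TPM filter, -0.41 with the length and GC correction, -0.42 with the block and that correction, and -0.49 to -0.37 with 1 sample left out. Over all tested genes, calls lower (2083) were 7109 as deposited, 3732 with protein-coding TPM, 1348 with the 5 TPM filter and 1338 to 1845 with 1 sample left out, and calls higher (1760) were 181, 707, 1122 and 891 to 1536. Member transcripts called lower (4) were 10 as deposited and 0 to 4 with 1 sample left out, with 0 without WT 2, 2 without C3G null 1 and 2 without C3G null 2. Where 1 null sample was left, limma took its spread from the other samples.

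Etv5 ranged from -0.049 to 0.026 with 1 sample left out, with values above 0 without WT 3 (0.017) and without C3G null 1 (0.026), and changed sign to 0.018 with the replicate block, 0.098 with the length and GC correction and 0.14 with both. As deposited, Ier3 (-0.40), Epha4 (-0.48), Mapk3 (-0.046) and Rps6ka2 (-0.18) changed sign, and with protein-coding TPM Epha4 did (-0.054). Calls were gained by Spry4 with quantile normalization (adjusted p = 0.0327), protein-coding TPM (0.0103), pseudocount 5 (0.0479) and the 5 TPM filter (0.0257), by Etv4 with protein-coding TPM (0.0101) and the 5 TPM filter (0.0293), and by Spred2 with protein-coding TPM (0.0357). The length and GC correction brought them nearer to 0, Spry4 to -0.066 (adjusted p = 0.437), Etv4 to -0.069 (0.457) and Spred2 to -0.21 (0.152). With the block and that correction they had -0.058 (adjusted p = 0.608), -0.037 (0.734) and -0.30 (0.0618). WT and null samples share only 2 replicate numbers, and the labels give these no meaning. The deviations of same-numbered samples from their group means correlated at -0.18 and 0.181 across genes. With 2 null samples, the deviations of C3G null 2 are those of C3G null 1 with the sign reversed, so the 2 values are not separate evidence. C3G null 1 and WT 3, which differ in number, had 0.334. With the number as a replicate block, 6 members were lower, Spred2 included (adjusted p = 0.0360), and 5 with the block and the length and GC correction. Among the other genes named, calls of Dusp10, Spred3, Rras, Shc1, Rps6ka2, Fgf8 and Fgfr1 were lost with at least 1 sample left out. The cause of these changes was not tested. With 2 null samples and no read counts, depth and counting error are unknown.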
